A study of Mus musculus with 2 samples.

Results

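The genes described here are 10 members of the VEGF and angiopoietin signalling systems, taken by symbol from the 55416 features of the count matrices: the ligand genes Vegfa, Vegfc, Angpt1 and Angpt2, the receptor genes Flt1, Kdr, Flt4, Tek and Tie1, and Nos3. Nuclei of whole fetal mouse brains were profiled by single-nucleus RNA-seq, with 1 library labelled wildtype (WT below) and 1 library labelled Cav1 knockout (KO below). Cav1 encodes caveolin 1, a membrane protein that forms small pits of the plasma membrane called caveolae, which are abundant in blood vessel cells. The labels give the age only as fetal. Strain, sex, the deleted part of Cav1 and the number of brains behind each library are not given in the sources used here. Raw unique molecular identifiers (UMIs, 1 per captured RNA molecule) were summed over barcodes with at least 500 detected genes and at most 5% mitochondrial UMIs. These sums were then divided among the neural nuclei that could bear a ligand and the vascular nuclei that could bear a receptor.

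VEGF A, the product of Vegfa, is released by cells around a vessel and acts on endothelial cells through the receptor encoded by Kdr, while the receptor encoded by Flt1 binds it tightly and can act as a trap. VEGF C, from Vegfc, acts mainly on the receptor encoded by Flt4. Angiopoietin 1, from Angpt1, activates the endothelial receptor encoded by Tek and steadies vessels, whereas angiopoietin 2, from Angpt2, can block that action, and Tie1 encodes a related receptor that modulates Tek. Nos3 encodes endothelial nitric oxide synthase, which acts downstream of Kdr and whose protein is held inactive by binding caveolin 1. In the developing brain, neural progenitors are a known source of VEGF A for the vessels that grow in from the surface.

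The WT library kept 6686 of 9763 barcodes with 17205381 UMIs, and the KO library kept 6680 of 10811 barcodes with 19878903 UMIs. The median nucleus held 2133 and 2366 UMIs in that order, and 10 barcodes were shared by both libraries. Joint clustering without the 10 genes among the variable genes gave 23 clusters, of which 22 were named from marker lists. Endothelial-like nuclei numbered 48 in the WT and 64 in the KO library, and mural-like nuclei (named from pericyte markers, with the smooth muscle genes Acta2 and Tagln at 0) numbered 33 and 40. The 1 unnamed cluster had few UMIs and was led by haemoglobin and ribosomal genes, and it held 9.38% of WT and 14.4% of KO nuclei. The targeted gene did not separate the libraries over all nuclei, with 71 Cav1 UMIs in the WT and 80 in the KO library. In endothelial-like nuclei the same gene had 17 UMIs in 9 of 48 nuclei against 1 UMI in 1 of 64, so WT and KO stand for the labels throughout. With 1 library per genotype no difference between genotypes has a replicate check, and all intervals below are exact 95% intervals that cover counting error only.

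The 250 bases before the annotated gene start are shown for Flt1, Tie1, Kdr and Tek, receptor genes of the endothelial-like nuclei described below, and for Vegfa, the ligand gene of the cells around them, because the results turn on where these genes were read. The sequences are from RefSeq on the GRCm38.p6 build, and 7 of the 10 genes had an entry, with none for Angpt1, Angpt2 and Nos3. They lie at chr5:147726012-147726261 (minus strand) for Flt1, chr4:118489850-118490099 (minus) for Tie1, chr5:75978456-75978705 (minus) for Kdr, chr4:94739039-94739288 (plus) for Tek and chr17:46032378-46032627 (minus) for Vegfa, which is 1 of 2 Vegfa entries. Each is written 5′ to 3′ on the strand of its gene, and capitals mark the ETS-type letters AGGAAG or CGGAAG or their reverse complements.
Flt1: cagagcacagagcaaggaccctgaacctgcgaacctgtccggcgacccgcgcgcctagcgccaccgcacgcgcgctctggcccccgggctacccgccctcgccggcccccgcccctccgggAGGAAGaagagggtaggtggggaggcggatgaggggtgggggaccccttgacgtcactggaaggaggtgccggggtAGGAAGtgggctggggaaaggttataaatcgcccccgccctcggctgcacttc
Tie1: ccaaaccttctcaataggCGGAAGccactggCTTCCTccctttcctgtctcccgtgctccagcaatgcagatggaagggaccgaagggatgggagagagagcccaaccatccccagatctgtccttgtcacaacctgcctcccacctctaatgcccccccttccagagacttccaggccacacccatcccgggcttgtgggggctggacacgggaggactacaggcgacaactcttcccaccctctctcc
Kdr: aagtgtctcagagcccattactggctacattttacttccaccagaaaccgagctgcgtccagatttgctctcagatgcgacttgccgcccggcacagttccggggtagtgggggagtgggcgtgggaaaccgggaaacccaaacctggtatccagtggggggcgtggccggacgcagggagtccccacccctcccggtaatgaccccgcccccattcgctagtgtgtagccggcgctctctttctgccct
Tek: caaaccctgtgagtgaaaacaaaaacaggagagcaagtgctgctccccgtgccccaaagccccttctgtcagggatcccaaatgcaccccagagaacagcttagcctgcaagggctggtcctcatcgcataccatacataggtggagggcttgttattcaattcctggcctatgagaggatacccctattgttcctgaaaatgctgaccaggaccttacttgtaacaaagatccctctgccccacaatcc
Vegfa: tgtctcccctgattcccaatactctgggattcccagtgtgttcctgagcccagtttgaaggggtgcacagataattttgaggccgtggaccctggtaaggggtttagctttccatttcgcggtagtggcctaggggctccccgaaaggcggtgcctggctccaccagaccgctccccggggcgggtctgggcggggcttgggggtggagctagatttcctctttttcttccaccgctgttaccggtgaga
Flt1 held AGGAAG at 2 places, 129 and 53 bases before the start, and Tie1 held CGGAAG once and AGGAAG once on the opposite strand. Kdr, Tek, Vegfa, Vegfc and Flt4 held neither. Of 32817 RefSeq promoter windows of the same length, 39.2% held at least 1 of these letter strings on either strand. ACGTG, 1 form of the core letters that hypoxia-inducible factors read, was searched for on both strands as well. It occurred in none of the 7 windows and in 16.6% of all windows. The other form, GCGTG, was not searched for and stands, for example, in the printed Kdr window, so no absence of the core is read. These are matches of letters and not measured sites.

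Vegfa (chr17:46327919-46343309, minus strand, GRCm39) was spread over the brain, with its highest levels in cells at the brain's linings and in radial glia-like nuclei. Levels are given in CPM, the UMIs of a gene per 1000000 UMIs of the same nuclei. In fibroblast-like nuclei Vegfa stood at 105 CPM (interval 73.4 to 145) in the WT and 124 CPM (91.5 to 164) in the KO library. Choroid plexus epithelium-like nuclei, which make cerebrospinal fluid, had 83.2 and 74.5 CPM. Radial glia-like nuclei, the neural stem cells of the fetal brain, had 66.1 CPM (54.1 to 80.0) and 71.1 CPM (59.3 to 84.7). Neurons had less Vegfa than radial glia in both libraries, which was a 2.45-fold difference (1.95 to 3.06) in the WT and 2.20-fold (1.79 to 2.68) in the KO library. Between these classes stood dividing nuclei (42.7 and 51.4 CPM) and intermediate progenitor-like nuclei (37.0 and 32.9 CPM), and the lowest neuron classes were cortical excitatory neuron-like (24.0 and 25.5 CPM) and forebrain inhibitory neuron-like nuclei (18.1 and 23.0 CPM). Neighbouring classes in the order of levels did not differ beyond their intervals. Endothelial-like nuclei, which carry the receptors, held only 5 and 4 Vegfa UMIs. Radial glia-like nuclei were thus 3.42-fold (1.42 to 10.8) and 6.46-fold (2.46 to 24.1) above endothelial-like nuclei in Vegfa. Of all Vegfa UMIs, 85.4% and 86.6% were in nuclei of neural classes, against 89.7% and 89.4% of all UMIs.

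Vegfc (chr8:54530257-54640131, plus strand) was highest in the endothelial-like nuclei themselves. Endothelial-like nuclei had 135 CPM (94.1 to 188) in the WT and 132 CPM (97.5 to 175) in the KO library, which was 10.0-fold (6.80 to 14.4) and 8.39-fold (6.04 to 11.4) above the neural classes. A few nuclei carried most of it: 13 nuclei had a Vegfc UMI in each library, and the 3 nuclei with the most held 65.7% and 58.3% of the endothelial-like UMIs. Among neurons Vegfc was uneven. Cluster 5, named other excitatory neuron-like from excitatory markers outside the cortex, held 33 UMIs (38.9 CPM) in the WT and 67 UMIs (82.4 CPM) in the KO library. That was 3.24-fold (2.16 to 4.72) and 6.56-fold (4.91 to 8.67) above the other neural nuclei. The 2 forebrain inhibitory neuron-like clusters also differed from each other, with 29 and 24 Vegfc UMIs in cluster 17 against 3 and 6 in cluster 1. Cortical excitatory neuron-like nuclei were near the bottom, with 2.46 and 4.13 CPM, whereas radial glia-like nuclei had 25.8 and 22.6 CPM.

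**Figure D1:**
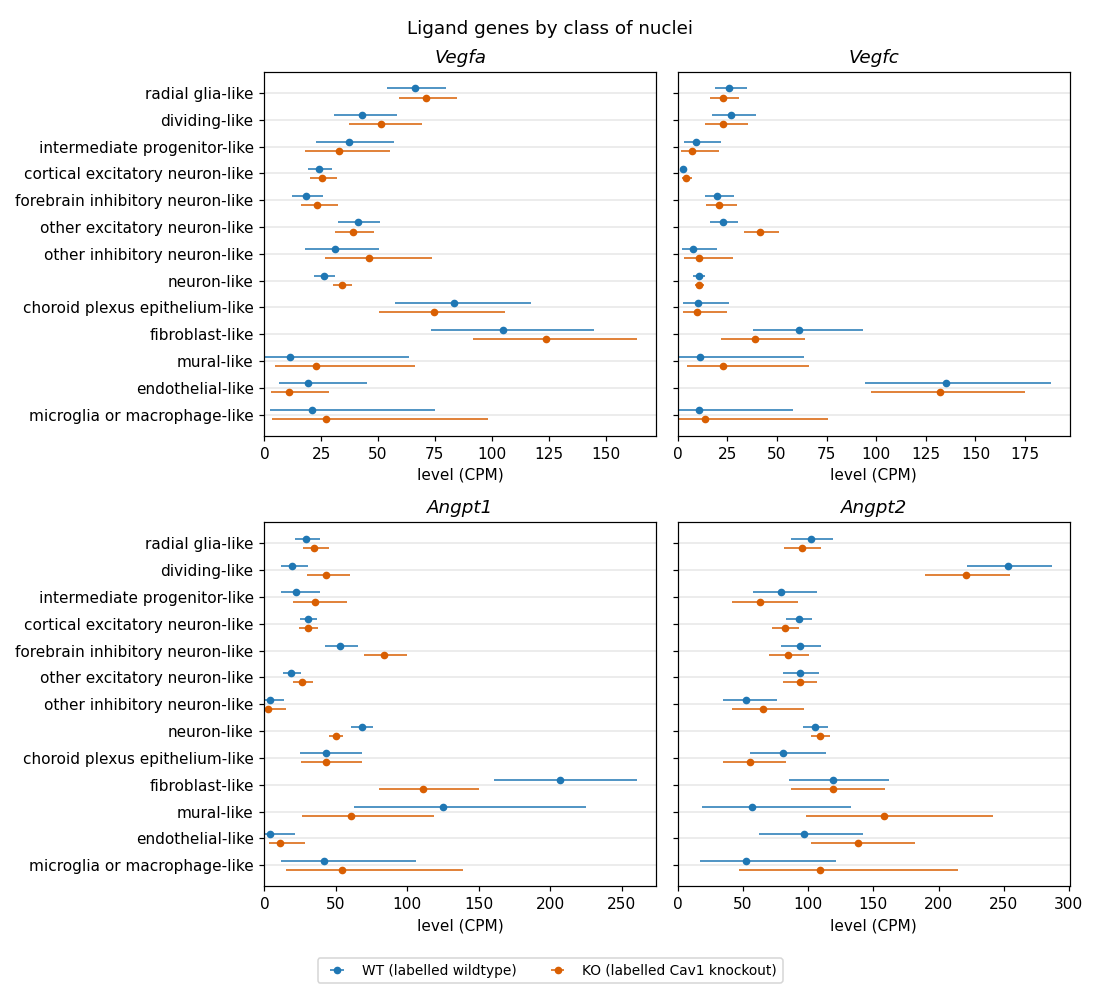
Level in CPM (x axis, linear) of the 4 ligand genes in each class of nuclei (y axis), with 1 point per library and exact 95% counting intervals as bars. Vegfa is highest in fibroblast-like, choroid plexus epithelium-like and radial glia-like nuclei, Vegfc in endothelial-like, Angpt1 in fibroblast-like and Angpt2 in dividing nuclei. The class labelled neuron joins clusters 2, 4, 7 and 12.

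Angpt1 (chr15:42288058-42540417, minus strand) was highest, among the named classes, in fibroblast-like nuclei and was patchy among neurons. Fibroblast-like nuclei had 71 UMIs (207 CPM) in the WT and 43 UMIs (111 CPM) in the KO library. The WT value leaned on few nuclei, as 1 of the 108 nuclei held 21 of the 71 UMIs. Mural-like nuclei, a known source of angiopoietin 1, had 11 and 8 UMIs (125 and 60.3 CPM), with intervals that overlapped those of the fibroblast-like nuclei. Within neurons, cluster 12 had 214 and 175 CPM and cluster 2 had 165 and 258 CPM, each above the other neural nuclei in both libraries (6.22-fold and 4.32-fold for cluster 12, 4.48-fold and 6.60-fold for cluster 2). Both clusters are compared by number only, because their leading genes named no neuron class. Forebrain inhibitory neuron-like cluster 1 exceeded cluster 17 by 6.65-fold (3.42 to 14.4) and 7.47-fold (3.91 to 16.0), the reverse of the order that Vegfc showed in the same pair of clusters. Endothelial-like nuclei, where the receptor gene Tek is found, held 1 and 4 Angpt1 UMIs.

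Angpt2 (chr8:18739202-18791603, minus strand) had 1739 UMIs in the WT and 1977 in the KO library, of which 93.6% and 92.4% were in neural classes. Angiopoietin 2 is known as an endothelial product, yet endothelial-like nuclei were at 0.916-fold (0.591 to 1.36) and 1.34-fold (0.991 to 1.77) the neural level. The highest class was dividing nuclei, with 253 CPM (222 to 287) and 221 CPM (190 to 255), 2.64-fold and 2.25-fold above neurons. The annotated gene lies wholly inside Mcph1 (chr8:18645128-18858114, plus strand), a cell division gene read from the opposite strand. Mcph1 showed a like pattern, with 148 and 128 CPM in dividing nuclei, 2.26-fold (1.87 to 2.71) and 1.93-fold (1.57 to 2.36) above neurons, and 91.7% and 91.6% of its UMIs in neural classes. Over 24 sums of 12 classes and 2 libraries, the Pearson correlation of Angpt2 with Mcph1 on log2(CPM + 10) was 0.85, the fifth highest of 15528 genes. The first in that order was Kif20b, a gene of cell division, at 0.90. These sums share their libraries and depth. Whether the counting used the strand is not given in the sources used here, so UMIs of Angpt2 and Mcph1 cannot be told apart with certainty, and the part of Mcph1 in the Angpt2 counts was not tested.

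**Figure D2:**
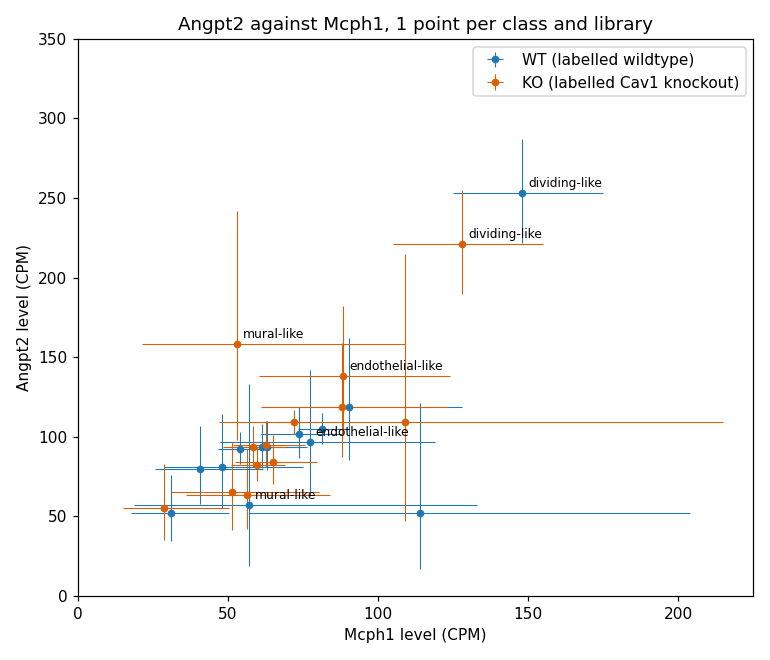
Level of Angpt2 (y axis, CPM) against that of Mcph1 (x axis, CPM), with 1 point per class of nuclei and library and exact 95% counting intervals as bars. Dividing nuclei are highest on both axes in both libraries, and mural-like nuclei of the KO library are above the others of like Mcph1 level.

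Flt1 (chr5:147498414-147662826, minus strand) marked the vessel wall. Endothelial-like nuclei had 336 UMIs (1297 CPM, 1162 to 1443) in the WT and 814 UMIs (2243 CPM, 2091 to 2402) in the KO library, and 42 of 48 and 61 of 64 nuclei had at least 1. Neural nuclei, which should lack the receptor, had a Flt1 UMI in 0.698% and 0.594% of nuclei, at median depths of 2248 and 2607 UMIs against 2915 and 3556 in endothelial-like nuclei. Mural-like nuclei came next, with 52 UMIs (593 CPM) and 40 UMIs (302 CPM). In these, 18 of 33 and 22 of 40 nuclei had a Flt1 UMI, while Kdr had 1 and 2 UMIs, Flt4 0 and 1, and Tie1 and Nos3 none. Flt1 was therefore the receptor gene that most mural-like nuclei with a receptor UMI carried. Of the 15 endothelial markers, 9 were detected in mural-like nuclei in each library, at a summed 605 and 324 CPM against 6061 and 7899 CPM in endothelial-like nuclei. Ly6c1, Slco1a4, Slco1c1 and Abcb1a were at 0 in the mural-like nuclei of both libraries. Cdh5 and Cd34 were at 0 only in the WT, and Pecam1 and Cldn5 only in the KO library. The part of the detected markers in the mural Flt1 level was not tested. No Flt1 UMI was found in choroid plexus epithelium-like nuclei, where 0 of 114 and 0 of 99 nuclei thinned to 1000 UMIs allow shares of nuclei with a UMI of up to 2.63% and 3.03%, taking 3 counts as the limit of a count of 0.

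Kdr (chr5:76093487-76139884, minus strand) was mostly endothelial, with a lower level in choroid plexus epithelium-like nuclei. Endothelial-like nuclei had 111 UMIs (429 CPM, 353 to 516) in the WT and 206 UMIs (568 CPM, 493 to 651) in the KO library, 154-fold (107 to 224) and 153-fold (115 to 205) above neural nuclei. Choroid plexus epithelium-like nuclei had 10 UMIs in 10 of 117 nuclei and 20 UMIs in 13 of 103 nuclei. This was 9.05-fold (4.05 to 18.3) and 12.9-fold (7.43 to 21.6) above neural nuclei, with no Flt1 UMI in the same nuclei. Of the 15 endothelial markers, 6 and 12 were detected in this class, at a summed 428 and 538 CPM against 58.6 and 85.4 CPM in neural classes. Cdh5 was at 0 in both libraries, and the part of these genes in the choroid plexus Kdr level was not tested. Radial glia-like nuclei held 1 Kdr UMI in the WT and 15 in the KO library. After thinning to 1000 UMIs, 1 of 680 and 8 of 664 radial glia-like nuclei had a Kdr UMI, and the summed endothelial markers of this class were 146 and 236 CPM, with 12 and 14 of the 15 detected. Their part in the Kdr counts was not tested.

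Flt4 (chr11:49500090-49543582, plus strand), the VEGF C receptor gene, was sparse, with 31 and 42 UMIs in all. Endothelial-like nuclei held 15 UMIs (57.9 CPM) and 32 UMIs (88.2 CPM), in 13 of 48 and 21 of 64 nuclei. Neural nuclei held 16 and 9 of the other UMIs, spread over 15 and 9 nuclei, and the endothelial-like level was 55.9-fold (25.7 to 121) and 174-fold (81.2 to 415) above theirs. Radial glia-like, fibroblast-like and choroid plexus epithelium-like nuclei had none.

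Tek (chr4:94627291-94763224, plus strand), the angiopoietin receptor gene, was enriched in endothelial-like nuclei and also present at a low level in neurons. Endothelial-like nuclei had 80 UMIs (309 CPM, 245 to 384) and 96 UMIs (264 CPM, 214 to 323), 32.9-fold and 25.1-fold above neural nuclei. Because neural nuclei are so many, they still held 58.7% and 60.1% of all Tek UMIs. Neurons exceeded radial glia-like nuclei in Tek by 3.54-fold (1.48 to 11.1) and 3.59-fold (1.62 to 9.90), the opposite of the order seen for Vegfa. The radial glia-like nuclei held only 5 and 6 Tek UMIs. At 1000 UMIs per nucleus, 0.960% and 1.09% of neurons had a Tek UMI, against 0.441% and 0.452% of radial glia-like nuclei. The intervals of these shares overlapped in both libraries. Among neurons the lowest level was 8.72 CPM in forebrain inhibitory neuron-like nuclei of the WT and 7.22 CPM in cortical excitatory neuron-like nuclei of the KO library, and other inhibitory neuron-like nuclei were highest at 17.4 and 16.2 CPM, with overlapping intervals. Mural-like nuclei had 3 and 9 Tek UMIs.

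Tie1 (chr4:118328385-118347261, minus strand) followed the endothelial pattern. Endothelial-like nuclei had 40 UMIs (154 CPM) and 50 UMIs (138 CPM), which was 71.4% and 80.6% of all Tie1 UMIs. Mural-like, radial glia-like and choroid plexus epithelium-like nuclei had none in either library.

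Nos3 (chr5:24569787-24589475, plus strand) was endothelial as well, at 32 UMIs (124 CPM) and 43 UMIs (118 CPM), 28.9-fold (18.3 to 44.7) and 23.4-fold (15.9 to 34.0) above neural nuclei. Mural-like nuclei had none. Neural nuclei held 66 and 90 Nos3 UMIs, of which nearly all were 1 per nucleus (63 and 88 nuclei), and radial glia-like nuclei 9 and 15. Nos3 overlaps the opposite-strand genes Gm15587 and Atg9b. Atg9b was at 0 in endothelial-like nuclei, whereas Gm15587 had 10 and 26 UMIs there, and UMIs of these overlapping genes were not separated here.

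**Figure D3:**
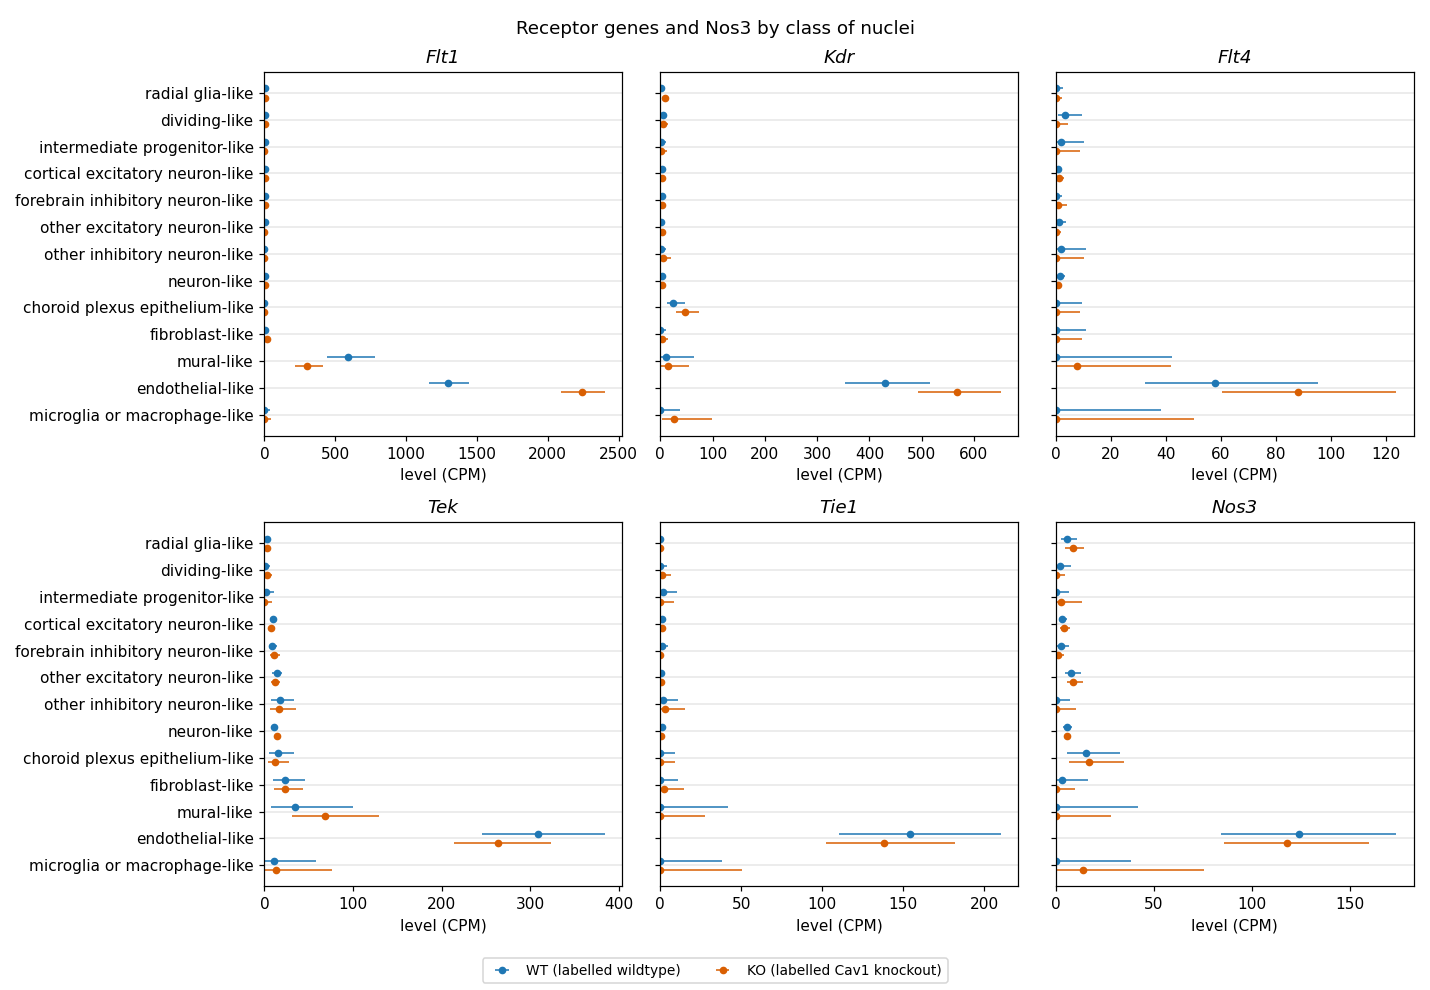
Level in CPM (x axis, linear, a scale of its own in each panel) of the 5 receptor genes and Nos3 in each class of nuclei (y axis), with 1 point per library and exact 95% counting intervals as bars. All 6 genes are highest in endothelial-like nuclei in both libraries. Mural-like nuclei stand out for Flt1 and choroid plexus epithelium-like nuclei for Kdr.

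UMIs of more than 1 receptor gene were often found in the same nucleus, where single genes were also found in most nuclei. Endothelial-like nuclei with a UMI numbered 42 of 48 and 61 of 64 for Flt1, 40 and 57 for Kdr, and 32 and 39 for Tek. In endothelial-like nuclei, 36 of 48 nuclei of the WT and 54 of 64 of the KO library had UMIs of both Flt1 and Kdr, and 26 and 36 had both Kdr and Tek. All 17 Nos3-bearing nuclei of the WT and 22 of 25 of the KO library also had a Kdr UMI. Of the 13 nuclei with Vegfc in each library, 11 had Kdr in each. These counts depend on the depth of a nucleus and on how often each gene was found alone. Whether genes met more often than their single counts give was not tested, so no link between them is read.

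**Figure D4:**
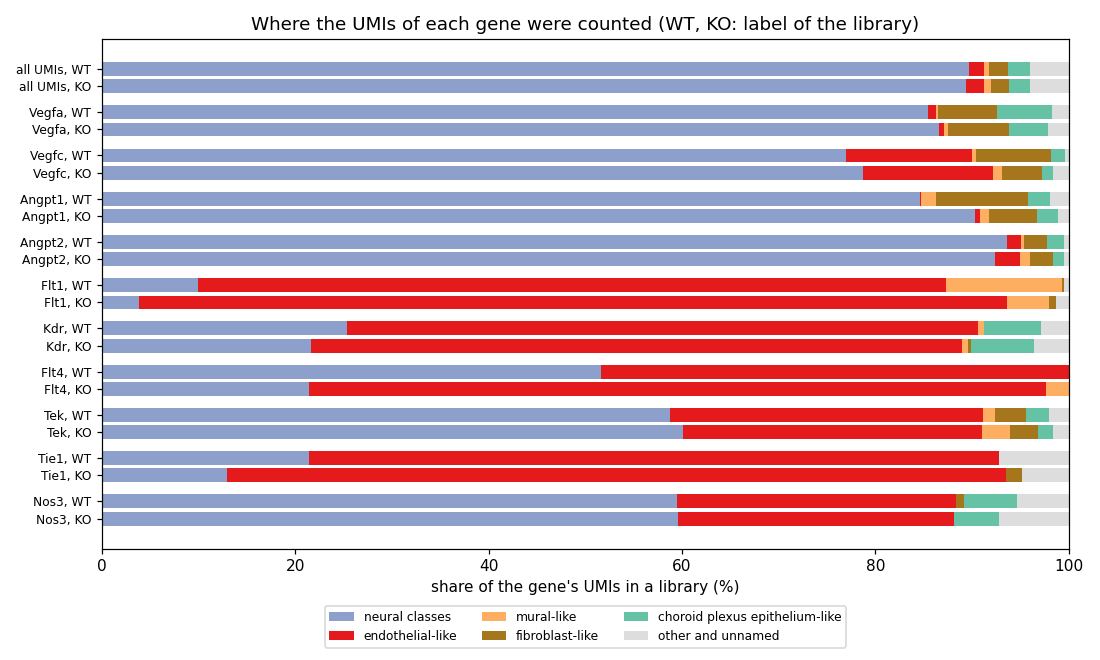
Share of the UMIs of each gene, in % of its total per library (x axis), that was counted in neural, endothelial-like, mural-like, fibroblast-like, choroid plexus epithelium-like and other nuclei, with all UMIs as the top pair of bars. The 4 ligand genes lie mostly in neural nuclei (77.0% to 93.6%), and Flt1, Kdr and Tie1 mostly in endothelial-like nuclei (65.3% to 89.7%), while most Tek and Nos3 UMIs are in neural nuclei (58.7% to 60.1%). Flt4 is at 48.4% in endothelial-like nuclei of the WT and 76.2% of the KO library.

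Between the libraries, Flt1 and Kdr were higher in the KO one, and the ligand genes were near level. Over all nuclei Flt1 was at 25.2 CPM in the WT and 45.6 CPM in the KO library, a log2 ratio of 0.86 (0.69 to 1.02), and Kdr was at 9.88 and 15.4 CPM, a log2 ratio of 0.64 (0.36 to 0.92). These 2 of the 10 genes were at least 1.5-fold higher in the KO library and none was lower by that fold. With the 8% of nuclei of highest doublet score left out, Kdr was at 0.48 and no longer past 1.5-fold, and Flt1 was at 0.68. Of all 21131 features with at least 20 UMIs, 5.87% were higher and 3.39% lower by the same rule. The median log2 ratio of the 10 genes was 0.18, against -0.01 over all features. All 4 ligand genes stayed within 1.5-fold. Vegfa was at 33.9 and 38.3 CPM (log2 ratio 0.18, 0.02 to 0.33) and Vegfc at 15.7 and 17.9 CPM (0.19, -0.04 to 0.42), while the ratios of Angpt1 (-0.01, -0.15 to 0.14) and Angpt2 (-0.02, -0.12 to 0.07) were within counting error of 0. The other 4 genes, Flt4, Tek, Tie1 and Nos3, had ratios between -0.06 and 0.24 with intervals that included 0. In sums over all nuclei, more cells of a type and more RNA per cell cannot be told apart, and endothelial-like nuclei were 0.718% of the WT and 0.958% of the KO nuclei.

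Within endothelial-like nuclei the Flt1 difference remained and that of Kdr was smaller. Flt1 had a median of 6 UMIs per nucleus (highest 59) in the WT and 7 (highest 71) in the KO library, so the nuclei of both libraries overlapped widely. The log2 ratio of the sums was 0.79 (0.60 to 0.98) for Flt1, 0.61 (-0.32 to 1.60) for Flt4 and 0.41 (0.07 to 0.75) for Kdr. Tek (-0.22), Tie1 (-0.16), Nos3 (-0.06) and Vegfc (-0.03) had ratios whose intervals included 0, as did Angpt2 (0.51, -0.21 to 1.27). Of the 8 genes with at least 20 UMIs in these nuclei, 2 (Flt1 and Flt4) were at least 1.5-fold higher and none was lower, where 12.7% of 6605 features were higher and 12.8% lower.

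Marker sums of several cell types also differed between the libraries in endothelial-like nuclei. Neuron markers (3204 and 3160 CPM) and radial glia markers (1220 and 1132 CPM) were near level. The 15 endothelial markers together stood at 6061 and 7899 CPM, the 9 erythroid markers at 880 and 3488 CPM, the 11 mural markers at 259 and 642 CPM and the 10 fibroblast markers at 467 and 157 CPM in the WT and KO endothelial-like nuclei. Their part in the endothelial Flt1 ratio was not tested. When every endothelial-like nucleus was thinned to 1000 UMIs, a setting chosen after the data were seen, Flt1 was at 2000 and 3000 CPM over 44 and 63 nuclei (log2 ratio 0.58, 0.21 to 0.97) and Kdr at 636 and 698 CPM (0.13, -0.58 to 0.87). At that depth Tek was at 386 and 254 CPM, and it joined Flt1 past the 1.5-fold rule, in the lower direction, while 3 genes under 20 UMIs changed sign: Angpt2 to -0.88 (-2.54 to 0.71), Tie1 to 0.48 (-1.20 to 2.38) and Nos3 to 0.62 (-1.02 to 2.50). The share of nuclei with a Kdr UMI at that depth was 52.3% and 41.3%, against the direction of its CPM, and no order was read from it. With endothelial nuclei defined by at least 3 endothelial markers in place of clusters (62 and 89 nuclei), the Flt1 ratio was 0.55 and that of Kdr 0.06, and none of the 10 genes passed 1.5-fold. Without the 8% of nuclei of highest doublet score, 37 and 48 endothelial-like nuclei were left. There the ratio was larger for Flt1 (1.02), Flt4 (1.06) and Kdr (0.52), and 3 genes passed 1.5-fold.

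In mural-like nuclei the Flt1 sums went the other way, 593 CPM in the WT and 302 CPM in the KO library (log2 ratio -0.98, -1.61 to -0.35). The share of nuclei with a Flt1 UMI was nearly equal, 54.5% and 55.0%. At 1000 UMIs per nucleus, Flt1 was at 545 and 600 CPM over 18 and 21 UMIs, and the ratio turned to 0.14 (-0.84 to 1.13). That interval includes 0, so no direction in mural-like nuclei is read at equal depth, where 33 and 35 nuclei were left. In the other settings the ratio stayed between -0.98 and -0.60. Neuron markers in these nuclei summed to 1973 and 3484 CPM and endothelial markers to 605 and 324 CPM, and their part in the Flt1 sums was not tested. Angpt2 in the same nuclei had 5 and 21 UMIs (log2 ratio 1.47, 0.03 to 3.24).

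In the neural classes, 2 of the 10 genes (Flt4 and Tie1) were at least 1.5-fold lower in the KO library, on 16 against 9 and 12 against 8 UMIs, and none was higher. Of 20422 features in these nuclei, 3.30% were lower and 6.12% higher by this rule. Vegfa was at 32.3 and 37.1 CPM there (log2 ratio 0.20, 0.03 to 0.37). Single classes differed for other ligand genes: Vegfc in cluster 5 had a log2 ratio of 1.09 (0.46 to 1.73), Angpt1 in dividing nuclei 1.16 (0.31 to 2.07), on 18 and 36 UMIs, and Angpt1 in fibroblast-like nuclei -0.89 (-1.48 to -0.33). The fibroblast value moved to -0.10 once the 8% of nuclei with the highest doublet scores were left out.

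**Figure D5:**
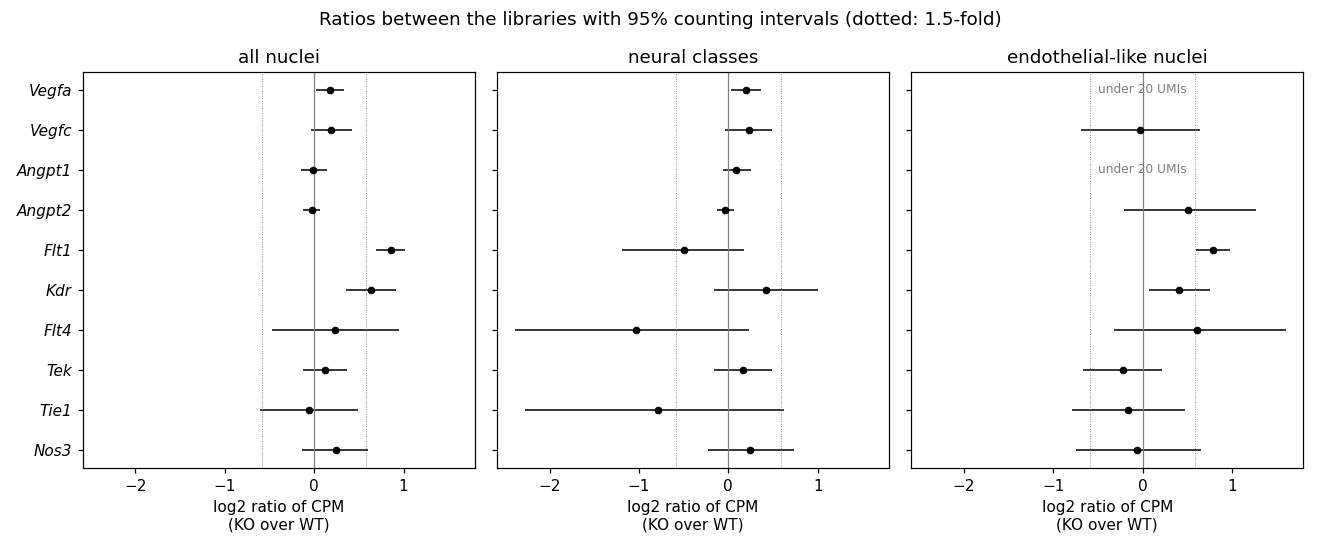
Log2 ratio of CPM, KO over WT (x axis), for each of the 10 genes (y axis) over all nuclei, neural classes and endothelial-like nuclei, with exact 95% counting intervals as bars and dotted lines at 1.5-fold. Flt1 is above the upper dotted line over all nuclei and in endothelial-like nuclei, and the ligand genes lie near 0 in neural classes. Vegfa and Angpt1 had under 20 UMIs in endothelial-like nuclei and are not drawn there.

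Ligand-bearing neural nuclei were then set against receptor-bearing vascular nuclei. A UMI of at least 1 of the 4 ligand genes was found in 1867 of 5727 neural nuclei (32.6%, 31.4 to 33.8) of the WT and in 2016 of 5383 (37.5%, 36.2 to 38.8) of the KO library. At an equal depth of 1000 UMIs the shares were 15.8% (14.8 to 16.8) and 16.6% (15.6 to 17.6), with 271 and 221 shallower neural nuclei left out. The higher share in the KO library was thus not seen beyond counting error at equal depth. The share rests mostly on Angpt2, which was found in 1191 and 1267 of the unthinned ligand-bearing neural nuclei and whose UMIs may include reads of Mcph1. Vegfa was found in 455 of 5727 (7.94%) and 590 of 5383 neural nuclei. A UMI of at least 1 of the 5 receptor genes was found in 67 of 81 vascular nuclei (82.7%, 72.7 to 90.2) and in 91 of 104 (87.5%, 79.6 to 93.2). When nuclei with at least 3 endothelial markers (62 and 89) took the place of both vascular classes, the shares were 90.3% in the WT and 77.5% in the KO library. That set replaced the mural-like class as well, so these shares are not on nuclei like those above, and no change of order is read. All endothelial-like nuclei of both libraries bore a receptor, and 19 of 33 and 27 of 40 mural-like nuclei did so. In neural nuclei the share was 3.89% and 4.74%, which includes nuclei with a Tek UMI, and at 1000 UMIs per nucleus it was 1.36% and 1.76%. For each receptor-bearing vascular nucleus there were 27.9 and 22.2 ligand-bearing neural nuclei, and 6.79 and 6.48 neural nuclei with a Vegfa UMI.

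Other genes of the same pathway were taken from a list of 27 that holds further ligands, co-receptors, hypoxia sensors and endothelial targets. Over all nuclei 26 had at least 20 UMIs. Esm1, a VEGF-induced endothelial gene, was the only one past 1.5-fold (26 and 50 UMIs, log2 ratio 0.74, 0.02 to 1.48), and none was lower, with a median of -0.02. Most Esm1 UMIs, 24 and 32, were in neural classes (log2 ratio 0.21, -0.60 to 1.04). Endothelial-like nuclei held 1 Esm1 UMI in the WT and 13 in the KO library, the 13 in 3 of 64 nuclei. This 1 of 26 genes is read against the 5.87% of all features that were higher. The VEGF co-receptor genes Nrp1 (253 and 228 CPM) and Nrp2 (122 and 149 CPM) and the signalling gene Plcg1 (80.7 and 72.4 CPM) were within 1.5-fold between the libraries. The hypoxia-inducible factor genes did not differ beyond counting error, with Hif1a at 57.8 and 56.5 CPM and Epas1 at 8.54 and 8.20 CPM. Of 14 known target genes of those factors, 13 had at least 20 UMIs and 1, Adm, which encodes adrenomedullin, was higher, on 6 and 20 UMIs, again against 5.87% of all features.

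In endothelial-like nuclei 15 of the 27 pathway genes had at least 20 UMIs. Hif1a (12 and 28 UMIs) and the Notch pathway genes Dll4 (20 and 44 UMIs) and Notch4 (9 and 21 UMIs) were at least 1.5-fold higher in the KO library, each with an interval that included 0. Nrp1 was lower, at 521 and 322 CPM (log2 ratio -0.69, -1.06 to -0.33), as was Egln2, an oxygen sensor gene, on 17 and 10 UMIs. Ptprb, whose product removes phosphate from the Tek receptor, had 479 and 592 CPM. Of the 14 target genes, 4 had at least 20 UMIs and 2 were higher: Slc2a1, the glucose transporter gene of brain endothelium, at 525 and 975 CPM (log2 ratio 0.89, 0.60 to 1.19), and Ldha, on 8 and 17 UMIs. Among all features of these nuclei 12.7% were higher and 12.8% lower, and with so few genes in each list nothing particular to the lists is read from these counts. The marker sums given with Flt1 are of these same nuclei, and their part in these ratios was not tested.

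By likeness of pattern over the 24 class and library sums, the genes nearest to Flt1 were Klhl6, Esam, Gja4, Rasgrp3 and Eng, with Pearson correlations of 0.98 to 0.99 among 15528 genes. Those nearest to Kdr were F11r, Bsg, Egfl7, Plxnd1 and Pdgfb (0.93 to 0.94). Vegfa was nearest to Naaladl2, A2m, Gm5089, Bmp7 and Eda (0.83 to 0.90). Angpt1 was nearest to Glipr2, Timp2, Emc8, Ppp2r3d and Plekha2, at 0.72 to 0.86, so no gene followed Angpt1 as closely as Esam followed Flt1. With a pseudocount of 1 in place of 10 CPM, 13 of these 20 genes were again among the nearest 5.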

How the data were processed

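The data are droplet single-nucleus RNA-seq (10x 3′ chemistry, version 3.1, per the labels' protocols) with 1 library per genotype. The authors deposited raw UMI counts per gene and barcode. The matrix headers, per the file headers, name Cell Ranger 6.1.1, whereas the submitters' processing notes list Cell Ranger 3.0.1, STAR and GRCm39. The annotation, the counting of intronic reads and the use of strand are not given in the sources used here.

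Barcodes with at least 500 genes and at most 5% mitochondrial UMIs were kept and clustered jointly (scanpy 1.11.5, Python 3.11.15, 2000 variable genes per library without the 10 genes and the pathway lists, 30 principal components, 15 neighbours, Leiden resolution 1). Outside the class neuron, a cluster took a name when at least 3 markers of 1 list exceeded the remaining clusters 2-fold, and 1.5-fold within each library. The name was dropped when another list held more of the cluster's 10 leading genes, or for a shallow cluster with none of its list's genes among them. The name erythroid was also dropped when haemoglobin genes did not make up most of a cluster's UMIs. Cluster 0, with 6 erythroid markers, was left unnamed in this way. Clusters 2, 4, 7 and 12 passed no list by the rule of 3 markers. They were named neuron from at least 3 general neuron markers 2-fold above the named non-neuronal clusters, without a condition within each library. Names are rebuilt and carry "-like". Doublets were kept, because the automatic threshold of Scrublet marked none. An alternative removed the 8% of nuclei with the highest scores. Poisson, Clopper-Pearson and conditional binomial intervals came from scipy 1.17.1 and cover counting error only, since reads and nuclei of 1 library are not replicates. A gene counted as apart at 1.5-fold with at least 20 UMIs over both libraries. The scripts were tested on simulated counts.

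Named were all 10 genes, pathway and target genes past that rule or with most UMIs in their role, and the 5 genes nearest in pattern. The genes, lists and rules were chosen with earlier results of these data known. Gene coordinates are from GENCODE on GRCm39, promoters from RefSeq on GRCm38.p6, and neither was converted.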

Additional observations from a re-analysis of the deposited data

Results flagged for a closer look

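Flt1 was higher in the KO library in endothelial-like nuclei (log2 ratio 0.79) and lower in mural-like nuclei (-0.98), and the counting intervals of both excluded 0. The difference between the classes was not tested, and the mural value changed sign at 1000 UMIs per nucleus, with an interval that included 0.

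Angpt1 was lower in the KO library in fibroblast-like nuclei (log2 ratio -0.89) and higher in dividing nuclei (1.16) and in forebrain inhibitory neuron-like nuclei (0.66). These differences between classes were not tested either. In the WT fibroblast-like nuclei 1 nucleus held 21 of 71 Angpt1 UMIs, and the fibroblast ratio was -0.10 without the 8% of nuclei with the highest doublet scores.

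The barcodes that the gene and mitochondrial filters left out, 3077 in the WT and 4131 in the KO library, held 177 and 376 UMIs of the 10 genes, or 96.0 and 143 CPM of their UMIs. Kept nuclei had 255 and 288 CPM for the same sum.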

How the results depend on the processing

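With 1 library per genotype, precision was limited by counts, as in the 48 and 64 endothelial-like and the 33 and 40 mural-like nuclei. No paired analysis was possible because there is only 1 library per genotype. Of the 74 recomputed values that carry a comparison, 52 moved by less than their interval or count limit, and those that moved more follow. With the highest 8% of doublet scores removed, 1 of the 10 genes was 1.5-fold apart over all nuclei (Flt1 0.68, Kdr 0.48), and endothelial-like nuclei held 60.3% of KO Kdr UMIs. Neural nuclei then held 90.3% and 90.8% of Vegfa UMIs, against 66.8% and 69.9% at a resolution of 0.5 and 78.4% and 77.6% at 2. At 0.5 no cluster was named radial glia or intermediate progenitor, and unnamed nuclei numbered 1383 and 1451, against 627 and 964 in the main setting. A minimum of 200 genes also left no cluster named radial glia. With the highest doublet scores removed that class held 182 and 272 nuclei, against 723 and 703. In endothelial-like nuclei 1 gene was apart with a minimum of 1000 genes per nucleus and 0 with nuclei of at least 3 endothelial markers. With the latter in place of both vascular classes, receptor-bearing shares were 90.3% and 77.5%, on a set unlike the main one. Ligand-bearing neural nuclei were 35.7% and 40.5% with the minimum of 1000 genes, and 36.0% in the KO library at a resolution of 2. Thinned to 2000 UMIs, radial glia-like nuclei had Vegfa in 13.3% and 14.0%, and KO endothelial-like nuclei had Kdr in 74.0% and Flt1 in 94.0%. Thinned to 1000 UMIs, Kdr over all nuclei had a log2 ratio of 0.99, and mural Flt1 changed sign to 0.14 (-0.84 to 1.13). The 2 pathway and target genes apart became 0 with at least 100 UMIs and 1 at 2-fold, and 13 of the 20 genes of like pattern were shared at a pseudocount of 1. The causes were not tested.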
